A study of Macaca mulatta with 161 samples.

Results

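Histone genes encode the proteins around which nuclear DNA is wound, and 79 of the 16049 gene symbols measured in single inner cells of rhesus monkey blastocysts belong to them. They were taken by symbol: 65 clustered genes, whose symbols start with HIST1H, HIST2H, HIST3H or HIST4H, and 14 variant and linker genes, whose symbols start with H1F, H2AF, H2BF or H3F. The core histones H2A, H2B, H3 and H4 form the nucleosome, and the linker histone H1 binds where the DNA enters and leaves it. Clustered histone genes lie in many similar copies and are mainly transcribed while DNA is being replicated, and most of their messages end in a stem-loop in place of a poly(A) tail, although some loci also give polyadenylated transcripts. Most variant histone genes are single genes with polyadenylated messages that are made throughout the cell cycle, and their proteins replace the canonical ones at particular places in the genome. Early embryos first package their chromatin with histones stored in the oocyte and then from their own transcripts.

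The cells came from oocytes of hormone-stimulated females that were fertilised and cultured, and all 161 share this origin and carry no genetic or drug treatment. They were inner cells, which stayed unstained when the outer cells of a blastocyst were marked with the membrane dye PKH26. The 4 stages were early (about embryonic day 5, a small cavity, 44 cells), middle (about day 5.5, 39 cells), late (about day 6, a fully expanded cavity, 52 cells) and hatching (about day 7, 26 cells), with 1 library per cell made from poly(A) RNA. Which embryo or animal gave which cell is not in the labels. A stage therefore counts as 1 sample, its cells are not replicates, and no test between stages was possible.

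Values are FPKM, in which fragment counts are divided by transcript length and by the mapped fragments of the cell, so levels are per length. Each gene is given by its lowest, median and highest cell and by the mean ± SD between cells of log2(FPKM + 1); a difference is between 2 such means, which understates the difference of low genes. Depth, taken from the steps in the low values, had a median of 10.9 M reads per cell (range 2.90 to 18.3 M), and stage medians lay between 10.2 and 11.8 M. One read of a histone gene is worth a median of 0.166 FPKM. Summed epiblast markers had medians of 1543 to 3347 FPKM per stage, summed primitive endoderm markers 439 to 1919 and summed trophectoderm markers 3201 to 4123, so trophectoderm transcripts were present in cells taken as inner. Markers of blood and of granulosa or cumulus cells had stage medians of at most 5.82 FPKM. The cells of each stage were also divided by the number in their titles into a lower and an upper range. Cells with another title prefix were left out of both. The cuts were set with earlier results known and are not marked in the titles, and what the numbers stand for is not given. Reads differed between these ranges in early cells (medians of 8.23 M for numbers 1 to 28 and 13.6 M for 29 to 48) and in hatching cells (8.63 M for 1 to 18 and 13.1 M for 22 to 47), so values by range stand beside the results they touch. Near-identical copies can share reads, and how the authors' counting treated such reads is not given in the sources used here, so the split between single genes of the H2A, H2B, H3 and H4 copies is uncertain.

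Together the clustered histone genes made up more of the captured poly(A) transcripts of early cells than of hatching cells. How much of their messages without a tail was captured was not measured. Their summed level had medians of 4952 FPKM in early, 3307 in middle, 3974 in late and 2179 in hatching cells, or 0.776%, 0.575%, 0.684% and 0.358% of all FPKM of a cell. Cells of every stage differed widely: the sum ran from 610 to 15993 FPKM in early and from 495 to 5125 in hatching cells, so the stages overlapped. The summed level of the variant genes had medians of 2106, 1588, 1866 and 2528 FPKM in the same order, above the clustered sum only in hatching cells. By class, the clustered H4 genes had medians of 1913 FPKM in early and 422 in hatching cells, and the linker H1 genes 1504 and 510. The clustered H2A genes stood at 1298 FPKM in early, 540.1 in middle and 804 in hatching cells. Clustered H2B and H3 genes were far lower, with medians of at most 141 and 102 FPKM in any stage. A cell had between 11 and 38 of the 65 clustered genes at FPKM of at least 1, with medians of 25.5 in early, 26 in middle, 27.5 in late and 22 in hatching cells.

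All 6 clustered linker genes had a mean of at least 1 FPKM. Of these, 5 were lower in hatching than in early cells by at least 1 log2 unit. Among all 9781 genes with such a mean, 16.2% were. HIST1H1E, a linker histone of dividing somatic cells and the highest of the 6, ran from 21.5 through a median of 452 to 1480 FPKM in early cells. Its values were 2.81, 394 and 992 FPKM in middle, 0.686, 219.9 and 1162 in late, and 0.893, 53.6 and 330.1 in hatching cells. None of the 26 hatching cells lay above the median early cell. Its mean log2 level was 8.54 ± 1.42 (SD, n = 44 cells) in early and 5.08 ± 2.20 (n = 26) in hatching cells, a difference of -3.46. HIST1H1B, another somatic linker histone, had medians of 283, 205, 264 and 41.3 FPKM from early to hatching, with 0.0769 to 258 FPKM in hatching cells and a hatching minus early difference of -2.93. HIST1H1D had medians of 305, 194, 187 and 36.8 FPKM and a difference of -3.30, and HIST1H1A medians of 193, 131, 175 and 35.3 FPKM. HIST1H1T, known as the linker histone of the testis, was at FPKM of at least 1 in 26 of 44 early, 30 of 39 middle, 22 of 52 late and 2 of 26 hatching cells (7.69%, exact Clopper-Pearson 95% interval 0.946% to 25.1%). HIST1H1C stood apart from the others: its medians were 278, 157, 188 and 163 FPKM, and its hatching minus early difference was -0.84.

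The clustered H2A genes held members that were low in hatching cells and members that were not. HIST2H2AC ran from 26.1 through 306 to 1346 FPKM in early, from 10.8 through 221 to 1149 in middle, from 0.797 through 292 to 1442 in late and from 0 through 33.6 to 285 in hatching cells. As for HIST1H1E, 0 of 26 hatching cells exceeded the median early cell, and the difference of means was -3.30. HIST1H2AH had medians of 113, 78.3, 113 and 1.45 FPKM and a difference of -3.35. HIST2H2AA4, the H2A copy with the highest mean level (386 FPKM over all cells), had a different order: 89.2, 452 and 1706 FPKM (lowest, median and highest cell) in early, 11.8, 112 and 573 in middle, 6.37, 244 and 772 in late, and 1.09, 523 and 2024 in hatching cells. Thus 2 of 39 middle cells but 14 of 26 hatching cells were above the median early cell. Between the number ranges of the stages, its middle minus early difference ran from -3.03 to -0.96. Its hatching minus early difference ran from -2.80 to 1.32 and did not keep a sign. HIST1H2AC was at FPKM of at least 1 in 29 of 44 early, 14 of 39 middle, 42 of 52 late and 22 of 26 hatching cells, and its medians were 23.5, 0.352, 26.4 and 52.2 FPKM. It had the largest positive hatching minus early difference of any histone gene, 1.33.

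Among the 18 clustered H2B genes, 11 had a mean of at least 1 FPKM. HIST1H2BK had medians of 37.0, 0.509, 26.2 and 59.1 FPKM from early to hatching, with single cells between 0 and 415 FPKM. HIST1H2BJ had medians of 48.99, 0.269, 17.4 and 49.6 FPKM, and HIST1H2BC medians of 0.341, 0, 6.26 and 28.1 FPKM. All 3 had their lowest median in middle cells, while every stage held cells at or near 0. Between the number ranges of the stages, middle minus early ran from -4.38 to -1.24 for HIST1H2BK. For HIST1H2BJ it ran from -4.74 to 0.37 and for HIST1H2BC from -2.91 to 0.24, so the lower middle level did not hold in every pair. HIST1H2BD was at FPKM of at least 1 in 14 of 44 early and 12 of 26 hatching cells (difference 0.67). HIST2H2BF was found in 14 of 44 early cells, whereas 0 of 26 hatching cells had it at that level. Taking 3 cells as the upper limit for a count of 0 allows a share of up to 11.5%. This rule is not the exact interval given for other genes.

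The H4 genes gave the highest clustered values, and H4 genes are known to encode nearly all the same protein. HIST1H4C, with the highest mean of the clustered genes (707 FPKM), ran from 2.84 through 418 to 3935 FPKM in early, from 2.73 through 476 to 2175 in middle, from 13.4 through 560.4 to 4305 in late and from 0.974 through 113 to 1042 in hatching cells. HIST1H4E had medians of 668, 280.3, 388 and 108 FPKM, with no hatching cell above 516 FPKM. HIST1H4F had medians of 354, 242, 276 and 40.7 FPKM, a hatching minus early difference of -3.16, and 2 of 26 hatching cells above the median early cell. HIST1H4L followed another course, with medians of 15.2, 31.4, 63.6 and 7.12 FPKM and 1 late cell at 3762 FPKM. H3 genes were lower: HIST1H3C, the highest of them on average, was at FPKM of at least 1 in 29 of 44 early, 32 of 39 middle, 37 of 52 late and 7 of 26 hatching cells. HIST2H3A went from 36 of 44 early to 8 of 26 hatching cells, and HIST1H3J from 2 of 44 to 4 of 26 (difference 0.67).

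**Figure D1:**
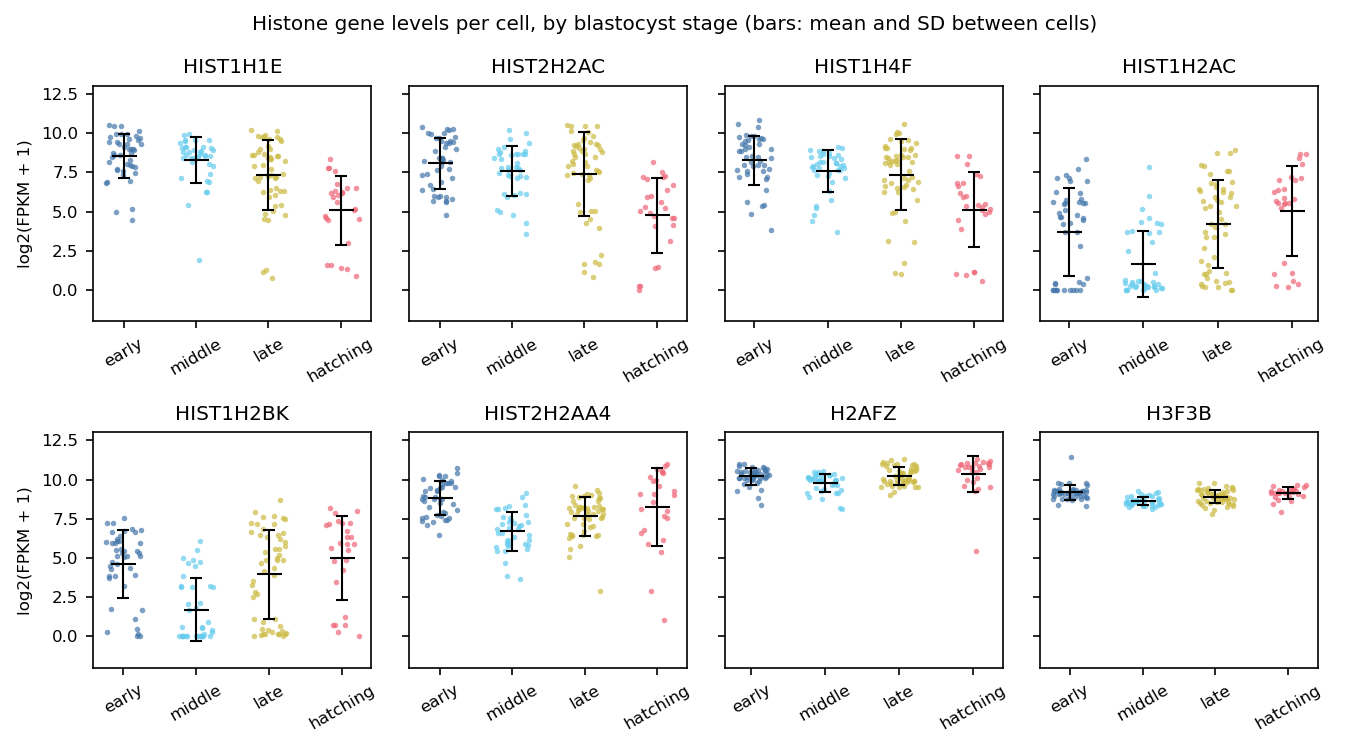
Level of 8 histone genes in each cell as log2(FPKM + 1) (vertical axis) by stage (horizontal axis); 1 point is 1 cell, and bars give the mean and the SD between cells. HIST1H1E, HIST2H2AC and HIST1H4F are lowest in hatching cells, HIST1H2AC, HIST1H2BK and HIST2H2AA4 are lowest in middle cells, and H2AFZ and H3F3B vary least.

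Among the variant genes, H2AFZ, H3F3B, H3F3C and H2AFV were steady from cell to cell, with SDs of at most 1.17. H2AFZ encodes an H2A variant found at gene starts and had the highest level of all histone genes, with a mean of 1239 FPKM, and it was above FPKM of 1 in all 161 cells. Its lowest, median and highest cells were at 336, 1259 and 2070 FPKM in early, 282, 1009.96 and 1471 in middle, 519.5, 1108 and 2554 in late, and 41.8, 1754 and 2563 in hatching cells. H3F3B, which encodes the H3 variant that is laid down outside replication, had medians of 575, 381, 484 and 579 FPKM, and its SD between cells (0.28 to 0.47) was the smallest of the genes shown in the plot by stage. H3F3C, an intronless copy related to H3F3B, had medians of 15.7, 9.25, 15.3 and 13.8 FPKM. H2AFV, a close relative of H2AFZ, had medians of 98.5, 67.3, 89.6 and 98.1 FPKM. All 4 were lowest in middle cells by these medians. Summed FPKM per cell was lowest there too, with a median of 557358 against 645388 in early cells. With cells scaled to equal sums, middle minus early went from -0.43 to -0.22 for H2AFZ and from -0.56 to -0.35 for H3F3B. For H2AFV it went from -0.52 to -0.31. Scaling by the median of ratios gave -0.42, -0.55 and -0.51 for these 3 genes.

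Other variants were more variable. H2AFX, whose protein is phosphorylated at DNA breaks, had medians of 57.8, 32.5, 72.5 and 105 FPKM, with a late minus middle difference of 1.30. H2AFY, which encodes a macroH2A with a large extra domain, had medians of 58.9, 49.3, 36.3 and 45.4 FPKM. H1F0, a replacement linker histone known from differentiated cells, had medians of 9.30, 15.3, 19.7 and 4.31 FPKM, and its hatching cells spread from 0 to 347 FPKM. H2AFJ had medians of 7.94, 3.16, 7.63 and 9.84 FPKM. H2AFY2, the other macroH2A gene, was at FPKM of at least 1 in 2 of 44 early, 1 of 39 middle, 3 of 52 late and 10 of 26 hatching cells (38.5%, exact Clopper-Pearson 95% interval 20.2% to 59.4%). Of those 10 cells 8 were among the 14 hatching cells numbered 22 to 47. H1FX, a linker histone variant, was found in 12 of 44 early and 15 of 26 hatching cells (difference of means 0.84), with 10 of the 12 early cells numbered 1 to 28.

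A pair of variants known from testis were found mainly in early cells. H2AFB3, a short H2A variant, was at FPKM of at least 1 in 19 of 44 early (43.2%, interval 28.35% to 58.97%), 7 of 39 middle, 3 of 52 late and 3 of 26 hatching cells (11.5%, interval 2.45% to 30.2%). Its highest early cell was at 116 FPKM, and its hatching minus early difference was -1.60. It also followed the title numbers: 13 of the 19 early cells numbered 29 to 48 but 6 of the 25 numbered 1 to 28 had it, as did 6 of 12 and 1 of 25 middle cells. H2BFWT, an H2B variant, was found in 12 of 44 early cells, 1 of 39 middle, 3 of 52 late and 1 of 26 hatching cells, and in early cells in both number ranges (7 of 25 and 5 of 19). These intervals hold only the error of counting cells, and cells of 1 embryo would make the true ones wider.

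Of the 79 genes, 60 had a mean FPKM of at least 1 over the 161 cells (48 clustered, 12 variant), and 19 did not. HIST1H3A (1.03 FPKM), HIST1H2BL (1.23) and HIST2H2AB (1.30) were just above this limit, and HIST3H2BB (0.930), HIST4H4 (0.842) and HIST1H2BF (0.832) just below. H1FNT, H2BFM, HIST1H3G, HIST2H4A and HIST2H4B were listed at 0 in every cell. The other 14 were found at FPKM of at least 1 in between 1 cell (HIST3H3) and 28 cells (HIST1H2AL). H3F3A and the oocyte linker histone gene H1FOO have no row and were not analysed here.

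Differences between hatching and early cells were mostly negative for the clustered genes, with 33 of 48 below 0. The 48 clustered genes had a median of -0.63 and ran from -3.46 (HIST1H1E) to 1.33 (HIST1H2AC), against a median of -0.12 over all 9781 genes with mean FPKM of at least 1. Lower by at least 1 log2 unit were 18 of the 48, where 16.2% of all genes were, and higher by as much were 2 (HIST1H2AC and HIST1H2BC), where 11.3% of all genes were. Of the 12 variant genes, with a median of -0.10, H2AFY2 was higher by 1.30 and H2AFB3 lower by 1.60 log2 units. By class, 5 of 6 linker H1, 5 of 13 H2A, 1 of 11 H2B, 3 of 10 H3 and 4 of 8 H4 genes were lower by at least 1 unit, and the class medians were -2.88, -0.75, -0.03, -0.24 and -0.66. The 6 most negative genes (HIST1H1E, HIST1H2AH, HIST2H2AC, HIST1H1D, HIST1H4F and HIST1H1B) stayed between -4.10 and -2.46 in all 4 pairs of number ranges of the 2 stages. Over the 48 clustered genes these pairs gave medians from -1.59 to -0.07, with 15 to 30 genes lower (13.9% to 27.7% of all genes) and 0 to 10 higher (12% to 16.3% of all genes). The most positive genes did not keep a sign: HIST1H2AC ran from -2.004 to 4.04 and HIST1H2BC from -1.58 to 3.13 over these pairs, while H2AFY2 ran from 0.45 to 2.03.

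**Figure D2:**
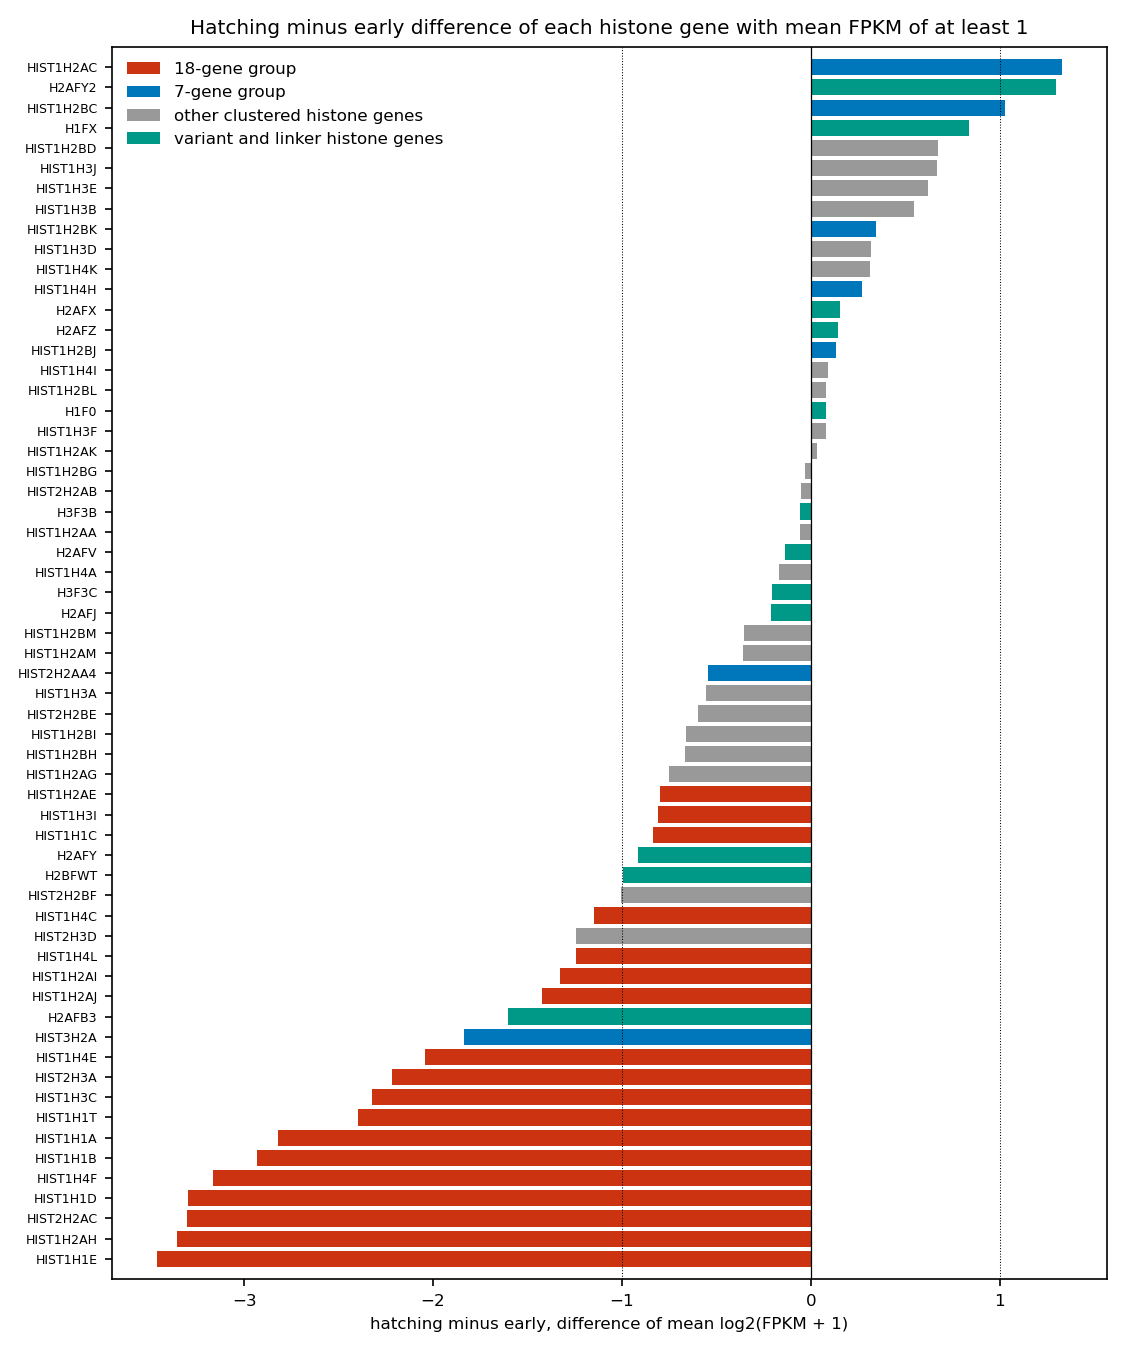
Difference of mean log2(FPKM + 1), hatching minus early cells (horizontal axis), for each of the 60 histone genes with mean FPKM of at least 1 (vertical axis), 1 bar per gene. Dotted lines mark 1 log2 unit, and colours mark the 18-gene and 7-gene sets defined by co-variation between cells. The 18 genes all lie below 0, from -3.46 to -0.80.

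The steps between neighbouring stages were unequal. From early to middle, 7 of 48 clustered genes were lower by at least 1 log2 unit (3.61% of all genes) and 0 higher (3.06%), with a median of -0.32. Of the 12 variants 3 were lower by at least 1 unit, H2AFB3, H2BFWT and H2AFJ, and 11 of the 12 were below 0 (median -0.61). By number range the clustered median ran from -0.76 to -0.04 and the variant median from -0.88 to -0.44. Of the clustered genes 6 to 21 were lower (5.44% to 7.87% of all genes) and 0 to 5 higher (4.77% to 8.31%). From middle to late, 8 clustered genes were higher (3.95% of all genes) and 1 lower (5.82%), with a median of 0.29. The median ran from -0.02 to 0.46 by number range. In these pairs 6 to 16 genes were higher (4.99% to 9.77% of all genes) and 0 to 6 lower (8.78% to 9.85%). From late to hatching, 18 clustered genes were lower (9.87% of all genes) and 2 higher (7.26%), with a median of -0.63. By number range that median ran from -0.92 to -0.35, with 17 to 23 genes lower and 0 to 9 higher. Of all genes, 9.2% to 22.9% were lower and 7.75% to 14.5% higher in these pairs.

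Histone genes did not vary as 1 block from cell to cell. For the 40 genes with mean FPKM of at least 5, levels with the stage means removed were correlated over the 161 cells, and genes were joined where the average Spearman rho was at least 0.3, a limit chosen after seeing the values. The cells share libraries, depth and embryos that the labels do not name, so these correlations are a description. The largest set held 18 genes: the linker genes HIST1H1A, HIST1H1B, HIST1H1C, HIST1H1D, HIST1H1E and HIST1H1T, the H2A genes HIST1H2AE, HIST1H2AH, HIST1H2AI, HIST1H2AJ and HIST2H2AC, the H3 genes HIST1H3C, HIST1H3I and HIST2H3A, and the H4 genes HIST1H4C, HIST1H4E, HIST1H4F and HIST1H4L. It held 0 H2B genes. A second set held 7 genes: HIST1H2AC, HIST2H2AA4 and HIST3H2A of the H2A class, HIST1H2BC, HIST1H2BJ and HIST1H2BK of the H2B class, and HIST1H4H. Pairs within the sets had median rho of 0.45 and 0.42, and pairs between them -0.02. Joining on these same correlations favours such a contrast. The highest pair between the sets, HIST1H1C with HIST2H2AA4, reached 0.49. Among variants, H2AFZ, H2AFV and H2AFX formed a set (median rho 0.40), and H3F3B and H3F3C a pair (0.58), whose near-identical coding sequences could share reads. Copies that share reads could also raise correlations within the 2 large sets, and this was not tested.

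**Figure D3:**
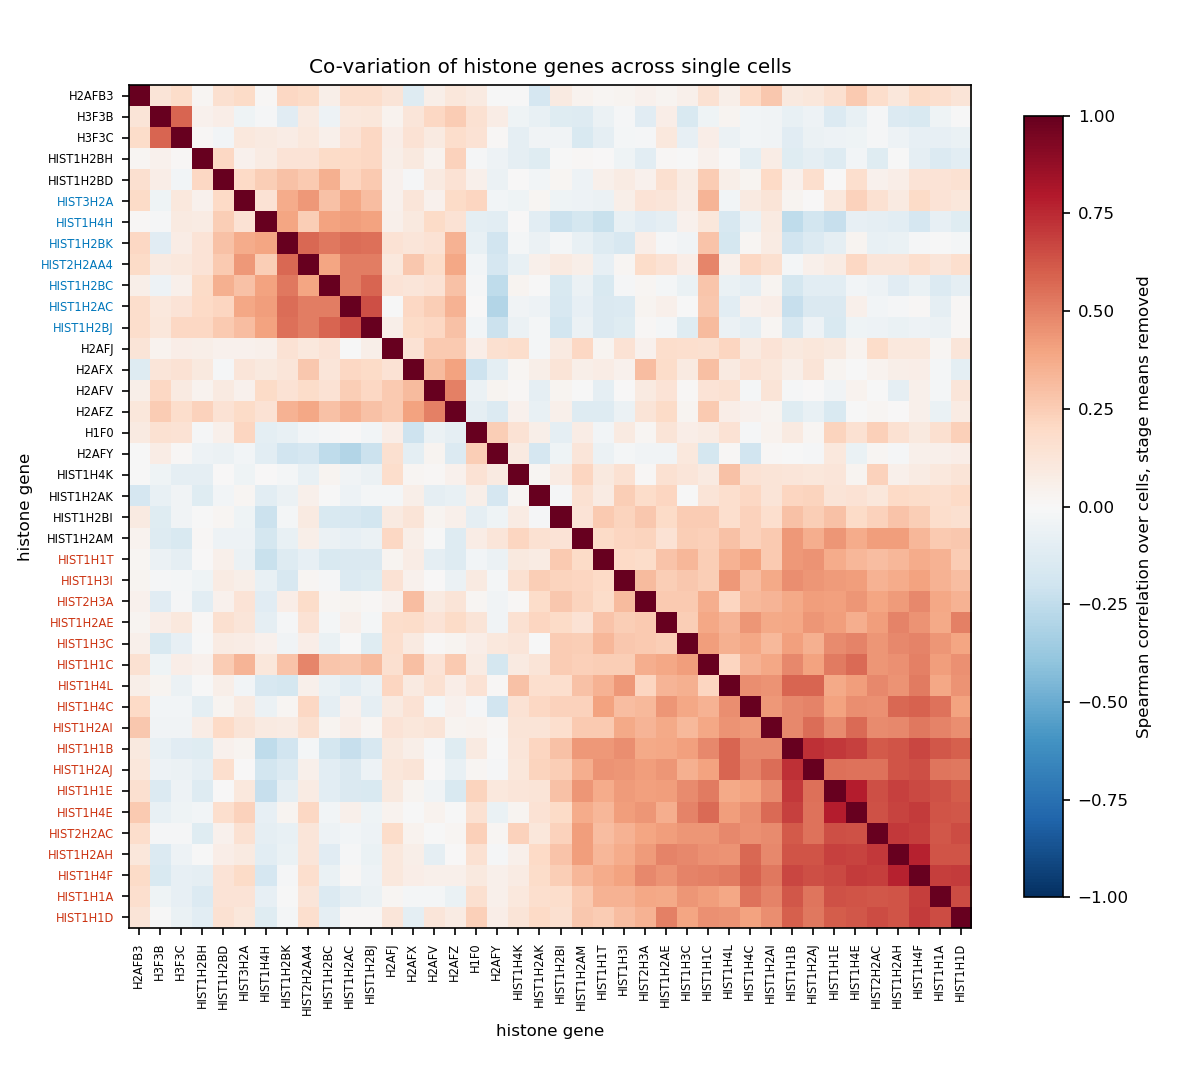
Spearman correlation of each pair of the 40 histone genes with mean FPKM of at least 5 (both axes) over 161 cells with stage means removed, from -1 (blue) to 1 (red). Gene names in red on the vertical axis are the 18-gene set and those in blue the 7-gene set, which show as 2 separate red blocks. The sets were joined on these same correlations.

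The 18-gene set marked the hatching cells. Its mean log2 level per cell was 5.70 ± 1.45 (SD, n = 44) in early, 5.46 ± 1.13 (n = 39) in middle, 5.55 ± 1.63 (n = 52) in late and 3.54 ± 0.87 (n = 26) in hatching cells. Cells ran from 2.96 to 8.33 in early, 2.49 to 7.11 in middle, 2.19 to 8.13 in late and 2.49 to 5.72 in hatching cells, and 0 of 26 hatching cells were above the median early cell. The lowest cells of the 4 stages were thus close to each other, while no hatching cell reached the high cells of the other stages. Of the 18 genes, 15 were lower in hatching than in early cells by at least 1 log2 unit (median -2.27), where 16.2% of all genes were, and 16 lower than in late cells (median -2.23), where 9.87% were. The lower level was present in each pair of number ranges, with medians from -2.36 to -2.01 against early and from -2.11 to -1.67 against late cells. Co-variation was also weaker in hatching cells, where the 153 pairs had a median rho of 0.14, against 0.55 in early, 0.40 in middle and 0.57 in late cells. Some of the 18 genes, among them HIST1H1T, HIST1H3C and HIST2H3A, were under FPKM of 1 in most hatching cells. The part of such low values in the weaker co-variation was not tested. The set was joined over all 161 cells, of which 26 were hatching, so the other stages weighed more in choosing it. The same holds for its limit of mean FPKM of at least 5. Shares of all genes given beside the 18-gene and 7-gene sets rest on a limit of at least 1. They thus include lower genes, whose differences are understated.

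The 7-gene set followed another course and moved with the title numbers. Its mean log2 level was 4.62 ± 1.64 in early, 2.63 ± 1.24 in middle, 4.05 ± 2.03 in late and 4.73 ± 2.03 in hatching cells (SD, n = 44, 39, 52 and 26). From early to middle 6 of the 7 genes were lower by at least 1 unit (median -2.06), where 3.61% of all genes were, and from middle to late 5 were higher (median 1.58), where 3.95% of all genes were. Within early cells, however, numbers 29 to 48 had a mean of 5.75 ± 1.35 (n = 19) and numbers 1 to 28 of 3.77 ± 1.29 (n = 25), and all 7 genes were higher by at least 1 unit in the higher numbers, where 5.69% of all genes were. The same direction held in middle cells (3.59 ± 1.30, n = 12, against 2.20 ± 0.97, n = 25), where 5 genes were higher by as much (3.93% of all genes). Late cells differed little between ranges (4.07 for the higher and 4.19 for the lower numbers, with 4 of 7 genes below 0). Hatching cells differed again (5.92 and 3.34), with 6 genes higher, where 24.9% of all genes were, and all SOX17-leading hatching cells are in the lower range. Over the 4 pairs of ranges the middle minus early median ran from -3.44 to -0.14, and the late minus middle median from 0.50 to 2.06. In early cells its level had a Spearman rho of 0.53 with recovered reads (n = 44), and in middle cells of -0.01 (n = 39). The part of depth or of the number ranges in the stage difference was not tested. The set was joined by co-variation over these same cells, so agreement of its genes between the ranges of a stage is partly built in.

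NANOG, a transcription factor of the epiblast, and SOX17, one of the primitive endoderm, divided the later cells. Cells were split by which of the 2 had the higher log2(FPKM + 1), a range of 2 measured levels and not a cell type. NANOG led in all 44 early and all 39 middle cells, in 33 of 52 late cells and in 19 of 26 hatching cells. The split was near even (within 1 log2 unit) in 3 late cells and 0 hatching cells. Leaving out NANOG and SOX17, 11 of 12 epiblast markers were lower (7.89% of all genes were) and 12 of 13 primitive endoderm markers higher (7.69% of all genes) by at least 1 unit in SOX17-leading late cells. All 7 SOX17-leading hatching cells have title numbers 1 to 18, a range that they share with 5 NANOG-leading cells. They had fewer genes at FPKM of at least 1 (median 5680 against 6940) and fewer reads (8.95 M against 12.2 M) than NANOG-leading hatching cells, and of 13 trophectoderm markers 5 (CDX2, GATA3, KRT19, CLDN4 and ENPEP) were higher and 2 (KRT7 and SLC7A2) lower by at least 1 unit in them, against 14.2% and 33.7% of all genes.

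Genes of the 7-gene set were lower where SOX17 led. HIST1H2BK ran from 0.0988 through 63.7 to 415 FPKM in the 33 NANOG-leading late cells and from 0 through 0.263 to 47.6 FPKM in the 19 SOX17-leading ones, and 18 of the 33 lay above all of the 19. In hatching cells it ran from 0.695 through 81.6 to 295 FPKM in the 19 NANOG-leading and from 0 through 0.692 to 28.03 in the 7 SOX17-leading cells. The differences of means, SOX17-leading minus NANOG-leading, were -3.90 in late and -4.35 in hatching cells. HIST1H2AC had medians of 71.2 and 3.38 FPKM in late cells (difference -3.01) and of 81.0 and 1.02 FPKM in hatching cells (difference -4.90). HIST1H2BJ had medians of 51.8 and 0.416 FPKM in late cells (-2.88) and 129 and 0.702 FPKM in hatching cells (-4.68). HIST1H2BC was at FPKM of at least 1 in 24 of 33 and 4 of 19 late cells, and in 14 of 19 and 2 of 7 hatching cells. HIST2H2AA4 was seen in all of these cells, with late medians of 290 and 146 FPKM and hatching medians of 776 and 58.3 FPKM (differences -1.02 and -4.15), and the late difference was -1.97 and -0.26 in the lower and upper number ranges.

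All 7 genes of the set were lower by at least 1 log2 unit in SOX17-leading cells, in late (median -2.88) and in hatching cells (median -4.15). The genes were joined by co-variation over these same cells, with only stage means removed. Their agreement across the split is therefore partly built in. Of all 9781 genes, 7.89% in late and 33.7% in hatching cells were lower by as much, with medians of -0.01 and -0.45. The level of the set was 5.02 ± 1.89 (SD, n = 33) in NANOG-leading and 2.37 ± 0.81 (n = 19) in SOX17-leading late cells, and 5.70 ± 1.27 (n = 19) and 2.08 ± 1.05 (n = 7) in hatching cells. In late cells 21 of 33, and in hatching cells 18 of 19, NANOG-leading cells lay above the highest SOX17-leading cell. Within number ranges the medians were -3.03 and -2.43 in late cells and -3.36 in the hatching cells numbered 1 to 18 (7 against 5 cells). Against NANOG the set had a Spearman rho of 0.69 in late (n = 52) and 0.79 in hatching cells (n = 26), and of 0.36 and 0.50 within the NANOG-leading cells of each stage (n = 33 and 19). In early and middle cells, where NANOG led throughout, rho was -0.16 and 0.18 (n = 44 and 39). Against SOX17 it was 0.17, -0.12, -0.66 and -0.70 from early to hatching.

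The 18-gene set did not follow the split as a whole. Its level was 5.495 ± 1.464 (n = 33) and 5.66 ± 1.91 (n = 19) in NANOG-leading and SOX17-leading late cells and 3.57 ± 0.87 (n = 19) and 3.47 ± 0.96 (n = 7) in hatching cells, and the groups overlapped. Its median difference was 0.05 in late and 0.11 in hatching cells, with 9 of the 18 genes below 0 in each, and no direction is given for it (0.45 in hatching cells with scaling by the median of ratios, -0.03 in those numbered 1 to 18). Spearman rho with NANOG was 0.38, 0.12, -0.11 and 0.12 from early to hatching. Single genes differed more. HIST1H4L ran from 0 through 40.01 to 263 FPKM in NANOG-leading and from 5.57 through 389 to 3762 in SOX17-leading late cells, a difference of 2.46 (2.95 and 2.54 within the number ranges). In hatching cells, SOX17-leading minus NANOG-leading was 2.61 for HIST1H3I, 1.89 for HIST1H1E, -2.35 for HIST1H1C and -2.95 for HIST1H4C. Of the 18 genes, 3 were higher and 5 lower by at least 1 unit in that split, near the 14.2% and 33.7% of all genes. In the late split 1 was higher and 1 lower (7.69% and 7.89% of all genes). The lower level of the set in hatching cells was present with NANOG-leading cells alone: 16 of 18 genes were lower by at least 1 unit in hatching than in late NANOG-leading cells (median -2.09), where 8.02% of all genes were lower and 9.41% higher by as much.

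The NANOG-leading and SOX17-leading cells of each later stage were also set against the early cells, which all 4 comparisons share. The 7-gene set had medians of 0.75 in NANOG-leading late cells (3 of 7 genes higher by at least 1 unit, 1 lower), where 6.36% of all genes were higher and 7.86% lower. It had a median of -1.79 in SOX17-leading late cells, with all 7 lower, where 9.23% of all genes were lower and 8.36% higher. In NANOG-leading hatching cells the median was 1.40 (4 higher, 1 lower, against 13.7% and 14% of all genes), and in SOX17-leading hatching cells -2.83 with all 7 lower (33.2% of all genes lower and 14.3% higher). HIST3H2A was the gene that was lower in both NANOG-leading groups, with differences of -1.28 in late and -1.35 in hatching cells. The 18-gene set had medians of -0.17 and -0.47 in NANOG-leading and SOX17-leading late cells and of -2.26 and -2.15 in hatching cells, so it was low in hatching cells of both kinds. HIST1H3I was the exception there, at 1.10 in SOX17-leading hatching cells.

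**Figure D4:**
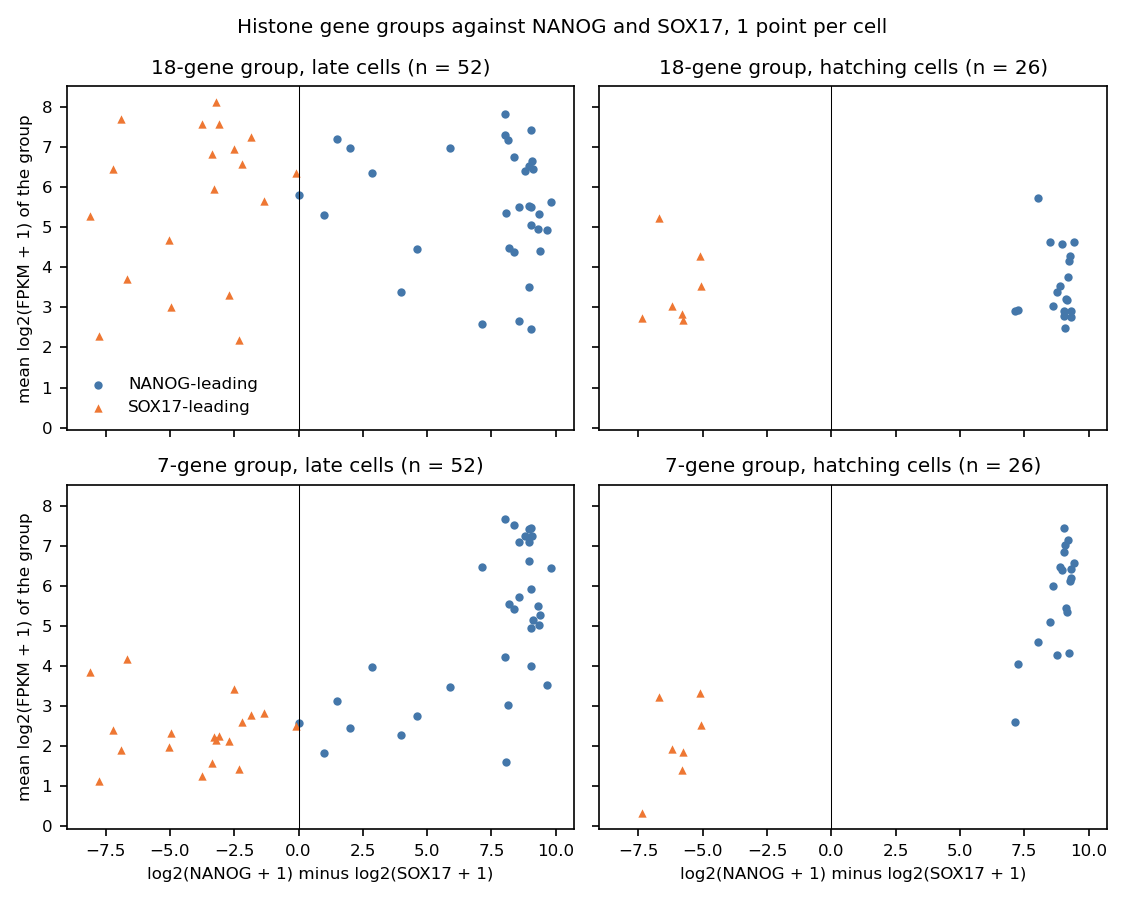
Mean log2(FPKM + 1) of the 18-gene set (top) and the 7-gene set (bottom) in each late (left) and hatching cell (right), against log2(NANOG + 1) minus log2(SOX17 + 1) on the horizontal axis. Circles are NANOG-leading and triangles SOX17-leading cells; the 7-gene set is lower in triangles, with means of 2.37 and 2.08 against 5.02 and 5.70, and the 18-gene set is not.

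For the other histone genes, the 48 clustered genes together had a median of -0.07 in late cells, with 8 lower and 1 higher by at least 1 unit (7.89% of all genes were lower and 7.69% higher by as much). In hatching cells their median was -0.40, with 15 lower and 4 higher, close to all genes, of which 33.7% were lower and 14.2% higher, with a median of -0.45. The 23 clustered genes outside both sets included 0 that passed 1 log2 unit in late cells, and HIST1H3F (0.96) and HIST2H3D (0.86) were the most positive of them.

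Among the 12 variant genes, 2 were higher and 3 lower by at least 1 unit in SOX17-leading than in NANOG-leading hatching cells. Their median was -0.40, near all genes, of which 14.2% were higher and 33.7% lower, with a median of -0.45. H1F0 ran from 0 through 2.79 to 33.4 FPKM in the 19 NANOG-leading hatching cells and from 54.5 through 111 to 347 FPKM in the 7 SOX17-leading ones, with no overlap. Its difference was 4.75, the largest positive one of all histone genes in that split, and 4.37 with the 5 NANOG-leading cells numbered 1 to 18. Larger positive differences occurred among all genes in that split. The share of all genes that separate these 7 and 19 cells without overlap was not computed. Whether the separation by H1F0 is unusual is therefore not known. In late cells the medians of H1F0 were 13.8 and 32.8 FPKM (difference 0.84) and the groups overlapped. H2AFY had medians of 26.9 and 55.1 FPKM in late cells (difference 1.55) and 30.5 and 83.1 FPKM in hatching cells (1.84), and every SOX17-leading cell had at least 9.42 FPKM while 5 of 33 late and 2 of 19 hatching NANOG-leading cells were under 1. H2AFX was lower in SOX17-leading hatching cells, with a difference of -4.05, and 4 of these 7 cells lay below the lowest NANOG-leading one, while in late cells the difference was -0.22. Among hatching cells numbered 1 to 18 it was -2.88, and in the 2 late ranges -1.51 and 0.69. H2AFZ had hatching medians of 1875 and 738 FPKM (difference -1.83), with 6 of 7 SOX17-leading cells below the lowest NANOG-leading cell and 1 at 41.8 FPKM, and late medians of 1279.7 and 989. H2AFY2 was found in 9 of 19 NANOG-leading and 1 of 7 SOX17-leading hatching cells.

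**Figure D5:**
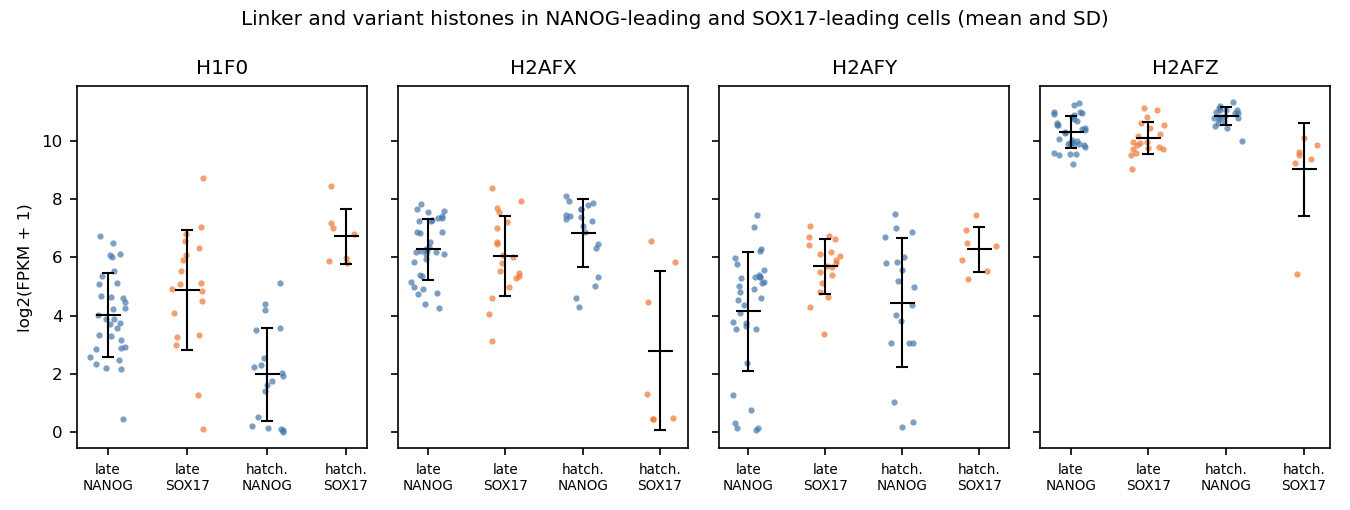
Level of H1F0, H2AFX, H2AFY and H2AFZ as log2(FPKM + 1) (vertical axis) in late and hatching cells split by whether NANOG or SOX17 was higher (horizontal axis); 1 point is 1 cell, and bars give the mean and SD between cells. All 7 SOX17-leading hatching cells lie above all NANOG-leading hatching cells for H1F0.

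Genes that act with histones were described from lists of their roles. The mitosis list holds 15 genes, among them CCNB1, CCNB2, CDK1 and PLK1, which drive entry into and passage through mitosis. Of these 15, 2 were lower by at least 1 unit in hatching than in early cells (CCNB2 by 1.87 and PLK1 by 1.12) and 0 higher, where 16.2% of all genes were lower and 11.3% higher. In hatching minus late all 15 were below 0 and 10 lower by at least 1 unit (median -1.07), where 9.87% of all genes were lower. In the hatching split all 15 were lower by at least 1 unit in SOX17-leading cells (median -3.63), where 33.7% of all genes were (median -0.45). Their summed level ran from 12.2 through 132 to 2711 FPKM there and from 591 through 2214 to 3330 FPKM in NANOG-leading cells, and 6 of the 7 SOX17-leading cells lay below the lowest NANOG-leading one in mean log2 level. In late cells the list had a median of 0.16 in the split.

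The list of DNA replication and S phase has 19 of 22 genes in the table. Of the 18 with mean FPKM of at least 1, 2 were lower in hatching than in early cells by at least 1 unit, RRM2 (-2.49) of nucleotide synthesis and TK1 (-1.82), and 1 was higher, UHRF1 (1.85), which recruits maintenance DNA methylation, against 16.2% and 11.3% of all genes. In the hatching split 17 of the 18 were lower by at least 1 unit in SOX17-leading cells (median -2.47), where 33.7% of all genes were, and RRM1, the large subunit of the enzyme to which RRM2 belongs, was higher by 4.49. Between hatching and late NANOG-leading cells, where the 18-gene set had a median of -2.09, the replication list had a median of 0.23 and the mitosis list of 0.04. From cell to cell the 18-gene set had a Spearman rho with the mean of the replication list of 0.17, -0.03, 0.23 and 0.15 from early to hatching, and with the mitosis list of -0.09, -0.02, -0.46 and -0.07. In late cells the set was thus lower where mitosis genes were higher (n = 52), also within the 33 NANOG-leading cells (-0.49).

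The histone chaperones, which carry histones to and from DNA, have 26 of 27 genes in the table and 25 that passed. In hatching minus early, 3 were lower by at least 1 unit, RBBP7 (-4.66), CHAF1B (-1.21) of the replication-coupled assembly factor and NPM3 (-1.16), and 1 was higher, ASF1B (1.03), which hands H3 and H4 to assembly factors, while 16.2% of all genes were lower and 11.3% higher. RBBP7 was also lower by 3.69 in hatching than in late NANOG-leading cells. In the hatching split 17 of 25 chaperones were lower by at least 1 unit in SOX17-leading cells (median -1.65), where 33.7% of all genes were. The list for synthesis and processing of histone messages has 13 of 15 genes in the table, without SLBP, the stem-loop binding protein, which was not analysed here. Of 12 that passed, 2 were lower in hatching than in early cells, CSTF2 (-1.53) and LSM10 (-1.12), a subunit of the particle that cuts histone messages, a share near the 16.2% of all genes. NPAT, the coactivator of clustered histone genes, stood at -0.80, ERI1, which trims the ends of histone messages, at -0.92, and ZNF473, a zinc finger protein of the processing complex, at 0.82. In the late split 0 of the 12 passed 1 unit, and in the hatching split 6 were lower, where 33.7% of all genes were.

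Scaling moved the median over all genes, and histone differences are to be read against it. With cells scaled by the median of ratios, the all-gene median went from -0.12 to -0.0033 for hatching minus early and from -0.45 to -0.15 in the hatching split. The 18-gene median was then -2.14 for hatching minus early and the 7-gene median -3.58 in the hatching split. H3F3B changed sign with this scaling, from -0.06 to 0.14 in hatching minus early and from -0.08 to 0.52 in the hatching split. H2AFV did too, from -0.14 to 0.06 and from -0.58 to 0.0079. No direction is therefore given for either gene in these comparisons.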

How the data were processed

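One table of FPKM values, which the authors deposited, was used, with 1 column for each of the 161 cells. FastQC, HTSeq, DESeq2 and TopHat2 2.1.0 are named in the submitters' processing notes, without their roles. The build is not given in the sources used here. For depth, whole reads were recovered from the FPKM steps for 13817 of 13857 genes (absolute tolerance 0.0001); they cover 78.9% to 91.6% of a cell's FPKM. The labels describe PCR amplification and mention no molecular identifiers, so intervals cover counting error only. No cells had identical values, and no doublet caller was run on the singly picked cells.

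Levels are log2(FPKM + 1), with a pseudocount of 1, averaged over cells. Genes with mean FPKM of at least 1 entered counts, and a difference of at least 1 log2 unit counts as past the limit. With 1 sample a stage, no test was made. The members and lists were chosen with earlier results of these data known, and so was the division by title numbers. Named genes are the 12 histone genes with the highest mean, the 6 most positive and 6 most negative in hatching minus early, 4 and 4 in each split, fixed variant genes and up to 4 genes of each list; any other named gene, and the 18-gene and 7-gene sets, were picked after seeing values. A RefSeq table (T2T-MMU8v2.0) matched 30 of the 79 symbols and gave no values. Python 3.11.15, pandas 2.3.3, numpy 2.4.6, scipy 1.17.1 and matplotlib 3.10.9 were used, and the summaries were tested on simulated data.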

Additional observations from a re-analysis of the deposited data

How the results depend on the processing

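Over 22 results, 248 alternatives were computed (pseudocount, filter, scaling, median over cells, title-number ranges, cells with another title prefix, low depth, definition of the split), of which 218 left a result within a set limit. For medians the limit was a move of less than the SD between cells without a reversed sign. For counts of genes it was a ratio of the counts. Those on early, middle and late number ranges, on low depth and on the 2 sets were chosen after seeing the data. No paired analysis was possible because the numbers in the titles name cells and pair nothing. For hatching minus early, the clustered median was -0.63 and became -1.19 with a pseudocount of 0.1 and 0 with the median over cells. The variant median of -0.10 became 0.098 with median-of-ratios scaling, 0.033 with equal sums, -0.48 with hatching cells 1 to 18 and 0.075 with those over 18. The count of 3 histone genes higher by 1 unit became 7 (pseudocount 0.1), 0 (pseudocount 10), 1 (hatching cells 1 to 18), 8 (over 18) and 5 (early cells 1 to 28), and the 19 lower became 11 with a pseudocount of 10. For hatching minus late, the clustered median of -0.63 became -1.32 with mean FPKM of at least 5 and 0 with the median over cells, and the variant median of 0.07 became -0.22 with hatching cells 1 to 18 and -0.044 with the higher late numbers. In the late split, the clustered median of -0.07 was 0.063 without the other title prefix, and the variant median of 0.13 was -0.12 with the lower numbers and -0.037 with cells split by SOX17 at FPKM of at least 1. In the hatching split, the clustered median of -0.40 was 0 with the median over cells, and the variant median of -0.40 was 0.061 with cells 1 to 18. For the 18-gene set, hatching minus early was -3.20 and -1.04 with pseudocounts of 0.1 and 10, and the hatching split was -0.030 with cells 1 to 18. For the 7-gene set, late minus middle was 0.32 with the higher middle numbers, the late split -3.75, -1.57 and -4.04 with pseudocounts of 0.1 and 10 and the median over cells, and the hatching split -2.55 with a pseudocount of 10 and -5.34 with the median over cells. Genes at few reads limit all medians, since 1 read is worth up to 0.891 FPKM. The cause of these moves was not tested.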

Other observations

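In late cells the pairs within the 7-gene set had a median Spearman rho of 0.55 (n = 52), and it was 0.60 and 0.65 within the lower (n = 18) and upper (n = 29) title numbers. In middle cells it was 0.27 (n = 39). HAS2, a cumulus cell gene that is no histone gene, was higher by 2.32 in hatching than in early cells and by 2.02 in hatching than in late NANOG-leading cells, while 7 of the 9 genes of the granulosa and cumulus list were at 0 in all hatching cells. Transcripts of the oocyte list had median sums of at most 0.0306 FPKM in every stage.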
